A study of Homo sapiens with 9 samples.

Results

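The 500 regions described here are those with the strongest FAIRE signal in every one of 4 deposited peak lists from the human T cell leukaemia line Jurkat (clone E6-1). Overlapping or touching peaks of the 4 lists were joined into 40703 regions on the autosomes, X and Y, of which 10841 held a peak in all 4 lists. Each of these common regions was given its highest fold enrichment in each list, and the 500 with the highest lowest-list value were kept. The regions were therefore selected on fold enrichment, and their fold values are a description to which no test applies. The other 10341 common regions serve as the comparison.

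FAIRE-seq was performed on non-stimulated (NS) cells and on cells stimulated with PMA and ionomycin, washed and rested (stimulus withdrawal, SW), among other states. By their labels, the 4 lists come from NS and SW cells given DMSO as the vehicle and from NS and SW cells given the protein kinase C inhibitor rottlerin (15 μM, 1 h), with a stimulation of 4 h by the labels (shorter by the study's methods) and a rest of 1 day in the SW cells. The study's methods, in contrast, describe peak calling on DMSO samples of 4 states (NS, ST, SW and RS), so the labels of the lists may not match their cells. The number of regions obtained here by merging the lists is also the one given there for those DMSO samples. The names of the lists other than NS DMSO are therefore doubtful. Membership of the 500 regions does not depend on these labels, which are used below only as names. Each list holds 1 library of 1 cell line, called against a shared total input library, so no spread between replicates and no p-value is available. Read depth is unknown, and intervals given with shares are 95% Wilson intervals that cover counting error only.

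FAIRE recovers DNA that formaldehyde does not crosslink to protein, which is mostly DNA free of nucleosomes. In mammalian cells such DNA lies at the promoters of active genes, many of them in CpG islands, and at enhancers. NF-Y is a 3-subunit factor that binds the CCAAT box upstream of many promoters, while RUNX, GATA and ETS factors bind enhancers and promoters of T cell genes.

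Promoters of the strongest regions are shown first for their CCAAT boxes, since NF-Y was the motif whose share differed most, in percentage points, between these regions and the other common regions. The stretches below come from the 3 highest-ranked regions at a coding TSS in which the central 300 bp, the part searched for motifs below, held at least 2 matches outside annotated untranslated sequence. All are on the plus strand of GRCh37, the build of the peak lists, 5′ to 3′, and capitals mark matches to CCAATNAG or CCAATNGG on either strand. They lie at chr14:20929853-20930052 (*PIP4P1* and *PNP*), chr4:2264014-2264213 (*MXD4*) and chr9:35072666-35072865 (*VCP*), and each is 200 bp long with 2 matches.
PIP4P1 and PNP: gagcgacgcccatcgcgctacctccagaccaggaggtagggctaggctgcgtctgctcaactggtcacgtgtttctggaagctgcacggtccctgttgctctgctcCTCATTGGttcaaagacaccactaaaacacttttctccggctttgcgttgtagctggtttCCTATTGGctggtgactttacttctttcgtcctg
MXD4: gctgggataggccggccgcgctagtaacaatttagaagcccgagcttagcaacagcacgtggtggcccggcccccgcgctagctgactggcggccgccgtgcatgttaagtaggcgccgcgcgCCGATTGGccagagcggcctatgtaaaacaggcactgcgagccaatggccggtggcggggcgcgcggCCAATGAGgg
VCP: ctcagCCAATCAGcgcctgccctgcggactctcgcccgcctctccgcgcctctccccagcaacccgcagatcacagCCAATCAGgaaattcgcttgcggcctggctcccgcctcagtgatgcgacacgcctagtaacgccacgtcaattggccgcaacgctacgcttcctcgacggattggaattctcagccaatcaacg

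Stretches of 4 distal regions, each named by the nearest coding gene, are shown for comparison. They come from the 4 highest-ranked regions over 10 kb from any coding TSS, not CpG-island-like and on the chromosomes from which sequence is printed here, whose central 300 bp held at least 2 matches to RUNX, GATA, AP1 or ETS motifs. Capitals mark the RUNX motif TGTGGT and the GATA motif AGATAA on either strand. No match to the AP1 pattern TGANTCA or the ETS pattern CCGGAAGT was present. Other forms of these sites, such as ETS sites without a CpG, were not sought. The stretches are 240 bp of the plus strand of GRCh37 from chr1:199010900-199011139 (*PTPRC*), chr9:108167877-108168116 (*FSD1L*), chr1:117312358-117312597 (*CD2*) and chr20:4018722-4018961 (*RNF24*).
PTPRC: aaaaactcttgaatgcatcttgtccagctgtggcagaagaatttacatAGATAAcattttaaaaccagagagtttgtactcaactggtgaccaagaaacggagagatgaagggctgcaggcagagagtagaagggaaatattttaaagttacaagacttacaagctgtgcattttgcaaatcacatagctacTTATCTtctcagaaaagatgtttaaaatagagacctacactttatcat
FSD1L: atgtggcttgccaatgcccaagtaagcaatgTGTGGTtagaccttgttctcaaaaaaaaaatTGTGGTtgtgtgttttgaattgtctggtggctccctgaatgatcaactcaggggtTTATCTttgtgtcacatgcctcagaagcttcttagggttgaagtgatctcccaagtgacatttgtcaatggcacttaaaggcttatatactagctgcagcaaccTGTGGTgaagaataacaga
CD2: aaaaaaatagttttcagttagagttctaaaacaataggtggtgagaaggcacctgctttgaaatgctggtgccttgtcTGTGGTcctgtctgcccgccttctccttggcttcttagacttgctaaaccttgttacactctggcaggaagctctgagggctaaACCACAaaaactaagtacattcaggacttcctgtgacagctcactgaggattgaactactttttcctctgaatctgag
RNF24: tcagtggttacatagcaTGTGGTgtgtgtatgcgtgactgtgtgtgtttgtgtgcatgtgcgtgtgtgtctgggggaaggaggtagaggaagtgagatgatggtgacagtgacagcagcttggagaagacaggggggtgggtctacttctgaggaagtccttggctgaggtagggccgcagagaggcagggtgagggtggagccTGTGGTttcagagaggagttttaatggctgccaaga

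The region with the highest lowest-list value lay at the promoter of *MARK2*, a kinase that regulates microtubules, and the next at *CKS2*, a subunit of cyclin-dependent kinases. Fold enrichment values are given below in the order NS DMSO, SW DMSO, NS rottlerin and SW rottlerin list. The *MARK2* region (chr11:63605990-63606647) had 10.8, 10.8, 11.4 and 11.2. The *CKS2* region (chr9:91925607-91926196) had 11.4, 11.7, 10.5 and 11.9. The *CKS2* region was thus the higher one in every list but NS rottlerin. These values were close to the largest of each list, which were 11.4, 11.7, 11.4 and 11.9.

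The next region was that of *GNAI2*, the inhibitory G protein subunit through which chemokine receptors signal, with 10.4, 10.2, 10.4 and 11.3 (chr3:50273152-50273703). The region of *TCTN3*, which encodes a protein of the ciliary transition zone, had 11.1, 10.0, 9.96 and 11.1 (chr10:97453606-97454152). *PNP* encodes purine nucleoside phosphorylase, whose loss causes T cell immunodeficiency, and it shares its region with the divergent gene *PIP4P1*. That region had 10.4, 9.34, 10.7 and 11 (chr14:20929551-20930255). The region of *C19orf47* and *PLD3*, the latter a lysosomal exonuclease, had 10.6, 9.91, 9.33 and 9.98 (chr19:40854244-40854677). *PIK3C3* encodes the class III phosphoinositide kinase of autophagy, and its region stood out for 1 list, with 9.86, 9.20, 9.81 and 11.6 (chr18:39534878-39535318).

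*CYLD*, a deubiquitinase that restrains NF-κB signalling, had 9.47, 9.66, 9.15 and 10.0 (chr16:50775563-50776086). The *CYLD* region lay within 1 kb of a coding TSS, with its mid-point in an intron. *MXD4*, a MAX partner that opposes MYC, had 9.55, 9.31, 9.15 and 9.37 at its promoter (chr4:2263801-2264327). The region shared by *DLG2* and *TMEM126B*, an assembly factor of respiratory complex I, had 9.47, 9.14, 9.86 and 9.50 (chr11:85339329-85340074). *CDC27*, a subunit of the anaphase-promoting complex, had 9.69, 9.12, 9.18 and 9.50 (chr17:45266584-45267034). The highest list exceeded the lowest by 1.04-fold at *MXD4*, 1.08-fold at *TMEM126B* and 1.06-fold at *CDC27*, so no list stood apart.

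The region between *TBCCD1* and *DNAJB11*, a chaperone of the endoplasmic reticulum, had 9.01, 9.25, 9.19 and 9.77 (chr3:186288032-186288537). *MPV17L2*, a mitochondrial protein, had 10.0, 9.51, 8.80 and 9.38 (chr19:18302902-18304133), in a region of which 12.4% of the sampled 32-mers also occur elsewhere in the genome. The remaining regions of the first 25, in order, were those of *DMWD*, *CNOT3* (a subunit of the CCR4-NOT deadenylase), *MEA1* with *KLHDC3*, *NDUFB4* (a subunit of complex I), *KMT5C* (a histone H4 methyltransferase), *TMED7*, *MARCHF2*, *TOM1L2* with *DRC3*, *RMI2* (a partner of BLM in DNA repair), *VCP* (an ATPase that extracts ubiquitinated proteins), *HMG20B* with *MFSD12*, and *SIVA1*. Across these 25 regions the fold enrichment ranged from 8.24 to 11.9, and the ratio of the highest to the lowest list ranged from 1.03 to 1.27. All 25 lay within 1 kb of a coding TSS, 24 were CpG-island-like, 7 had coding TSSs on both strands, 7 were on chromosome 19 and 13 held an NF-Y match.

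**Figure D1:**
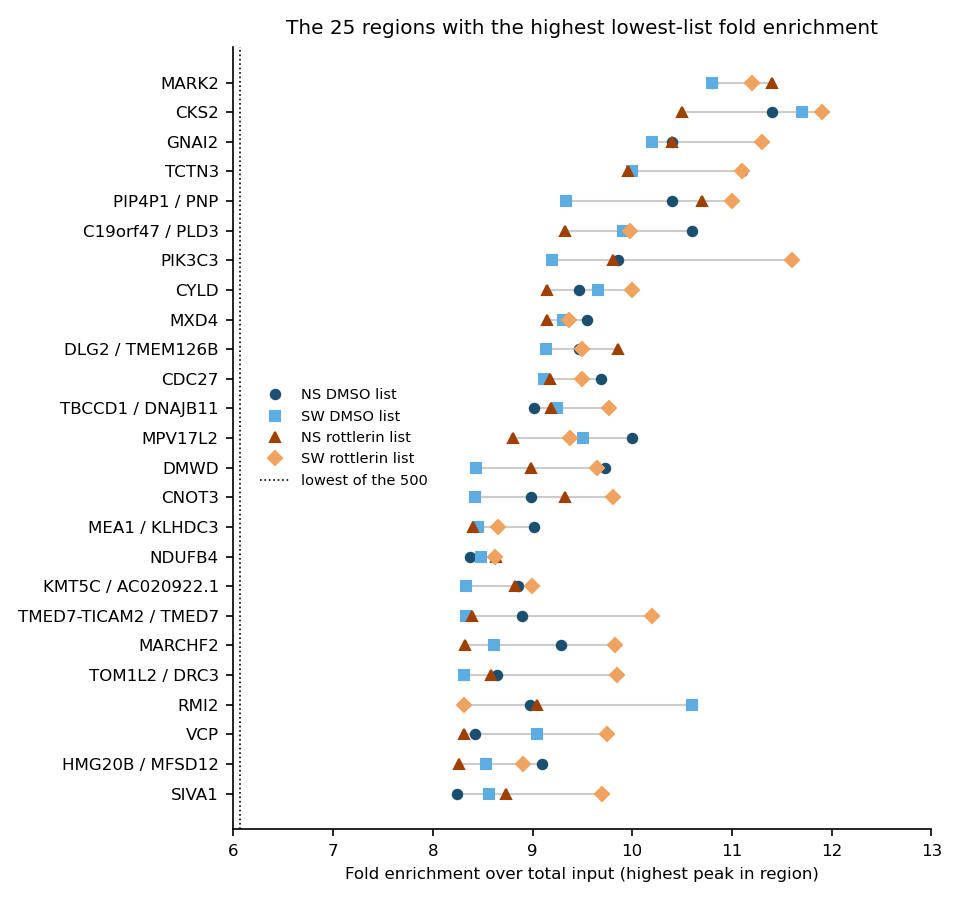
Fold enrichment over total input (x axis, starting at 6) in each of the 4 peak lists for the 25 highest-ranked regions, named by the coding genes with a TSS within 1 kb, with 1 point per list. All points lie between 8.24 and 11.9, to the right of the dotted line at 6.07, the lowest value of the 500 regions.

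Over all 500 regions the lowest-list value had a median of 6.57 and ran from 6.07 to 10.8, against a median of 3.90 in the other common regions. The threshold fell in a dense part of the ranking. The last region kept had 6.0721 and the first left out 6.0707, the last 10 members had 6.07 to 6.08, and the next 10 regions had 6.06 to 6.07. Median fold enrichment in the 500 regions was 7.07 in the NS DMSO list, 6.93 in SW DMSO, 7.19 in NS rottlerin and 7.60 in SW rottlerin, where the other common regions had 4.37, 4.31, 4.58 and 4.75. The SW rottlerin list, which was also the longest with 30409 peaks against 18977 to 23835 in the others, held the highest value for 252 of the 500 regions. Of the 500 regions, 497 held exactly 1 peak in each list, and their median width was 496 bp.

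The strongest regions were mostly promoters in CpG-rich DNA. Of the 500, 413 lay within 1 kb of a coding TSS, or 82.6% (79.0 to 85.7), against 54.1% (53.1 to 55.1) of the other common regions and 25.2% of all merged regions. A coding TSS lay inside 80.8% of them, against 50.4% of the other common regions. Mid-points were classed as untranslated, exonic or intronic first, so the class of 1 kb before a TSS holds only mid-points outside every transcript. In this order, 42.6% were in the 1 kb before a TSS, 26.4% in introns and 15.8% in 5′UTRs, and 3.6% were intergenic. The corresponding shares of the other common regions were 20.4%, 43.0%, 12.9% and 7.88%. Only 59 of the 500, or 11.8% (9.26 to 14.9), lay over 10 kb from every coding TSS, against 33.5% (32.6 to 34.4).

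The central 300 bp were CpG-island-like, with GC content above 50% and an observed to expected CpG ratio above 0.6, in 393 regions or 78.6% (74.8 to 82.0). In the other common regions the share was 48.9% (47.9 to 49.8), and in all merged regions 21.0%. Median GC content was 61.5% against 56.3%, and median width 496 bp against 441 bp. The part of GC content and width in the ranking was not tested. Repeats were no more frequent than elsewhere: over 10% of the sampled 32-mers occurred at more than 1 genomic position in 7 regions, or 1.4%, against 2.87% of the other common regions, and none of the 500 held a 32-mer of the mitochondrial genome.

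Among regions at a coding TSS, 90.1% (86.8 to 92.6) of the 413 were CpG-island-like against 82.1% (81.0 to 83.0) of the 5594 other common ones. Coding TSSs on both strands were found at 80 of the 413, or 19.4% (15.8 to 23.5), against 15.9% (14.9 to 16.9), and these intervals overlapped. The mid-point lay at a median of −100 bp from the nearest coding TSS (upstream) in the 413 regions, and at −58 bp in the other common regions at a coding TSS. It was upstream in 82.6% and 70.9% of them.

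Members made up 4.61% of the common regions (4.23 to 5.02), and this share varied among chromosomes. On chromosome 19 it was 8.12% (58 of 714, 6.34 to 10.4), on chromosome 9 it was 7.85% (31 of 395, 5.58 to 10.9), and on chromosome X 8.75% (23 of 263, 5.90 to 12.8). Chromosome 21 held 1 of 127 and chromosome 20 held 7 of 284.

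The CCAAT box was more frequent in the strongest regions than in the other common regions. The NF-Y motif was found in the central 300 bp of 162 of the 500 regions, or 32.4% (28.4 to 36.6), against 11.9% (11.3 to 12.5) of the other common regions and 6.74% of all merged regions. At least 2 matches were found in 66 regions, or 13.2% (10.5 to 16.4), against 2.45% (2.17 to 2.76). The most, 4, were in the region of *TXNDC16* and *GPR137C*.

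Since most of the 500 regions are promoters, motifs were compared again among regions within 1 kb of a coding TSS. There the NF-Y motif was found in 150 of 413, or 36.3% (31.8 to 41.1), against 960 of 5594, or 17.2% (16.2 to 18.2). In CpG-island-like regions at a coding TSS the shares were 36.3% (31.6 to 41.3) and 18.3% (17.2 to 19.5), and in the others at a coding TSS 36.6% (23.6 to 51.9, 15 of 41) and 11.9% (10.0 to 14.0). Over all common regions, the share was also higher in each band of GC content from 45% upwards: 29.9% against 6.91% between 45% and 55%, 39.4% against 17.7% between 55% and 65%, and 32.6% against 17.4% from 65%. Below 45% GC none of the 37 members held a match (0 to 9.41%), against 4.06% of the other common regions.

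The share with an NF-Y match fell along the ranking. It was 47.0% (37.5 to 56.7) in the first 100 regions, 36.0% (28.8 to 43.9) in those ranked 101 to 250 and 24.4% (19.5 to 30.1) in those ranked 251 to 500. Outside the 500 it was 26.6% (22.9 to 30.6) at ranks 501 to 1000, 19.7% at 1001 to 2000, 13.5% at 2001 to 5000 and 8.49% at the remaining ranks. The members ranked 251 to 500 and the 500 regions below them thus did not differ beyond their intervals.

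**Figure D2:**
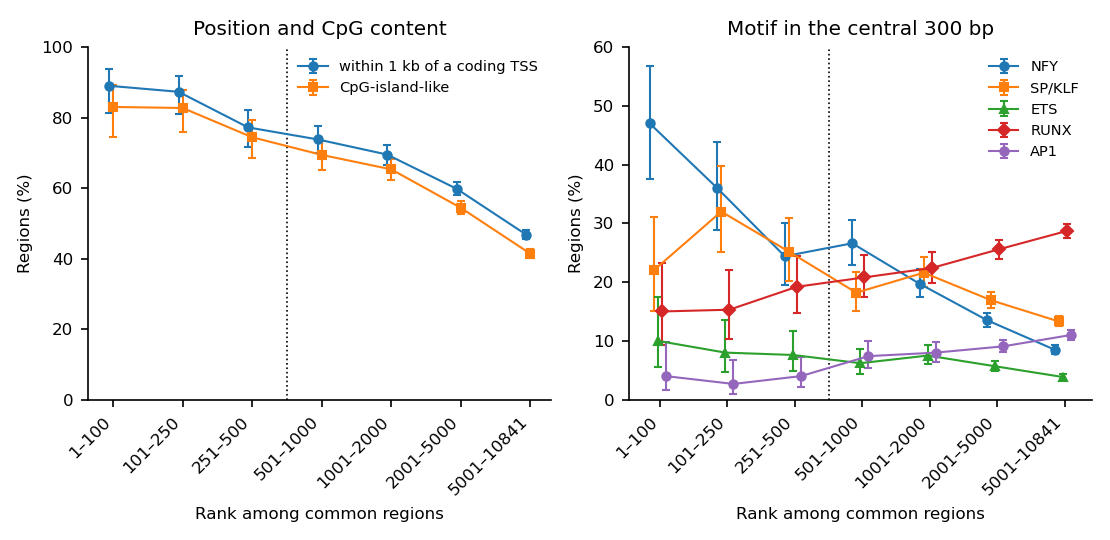
Share of common regions (y axis, %) by rank of the lowest-list fold enrichment (x axis, 7 classes), for position and CpG content (left) and for 5 motifs in the central 300 bp (right). Points are shares with 95% Wilson intervals, and the dotted line marks the limit of the 500 regions. The NF-Y share runs from 47.0% in the first 100 regions to 8.49% in the last class, while the RUNX share runs from 15.0% to 28.7%.

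Of 21 motif families sought, NF-Y was the only one whose interval in regions at a coding TSS lay wholly above that of the other common regions there, and for none did it lie wholly below. GGGGCGGGG, a GC box bound by SP and KLF factors, was found in 30.3% (26 to 34.9) against 25.3% (24.2 to 26.4). The ETS motif CCGGAAGT was found in 9.20% (6.78 to 12.4) against 8.17%, the NRF1 motif CGCATGCG in 5.33% (3.54 to 7.93) against 4.61%, and the YY1 motif AANATGGCG in 7.75% (5.54 to 10.7) against 7.22%. TGACGTCA, the site of CREB and ATF factors, was found in 5.08% (3.35 to 7.65) against 3.13% (2.70 to 3.62).

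Without restriction to coding TSSs, 6 families had an interval wholly above that of the other common regions and 6 wholly below. The former were NF-Y, SP/KLF, ETS, CREB/ATF, ZBTB33 and the E-box CACGTG, and the latter AP1, RUNX, GATA, NFAT, the E-box CAGCTG and TATA. RUNX was found in 17.2% (14.1 to 20.8) of the 500 against 26.8% (25.9 to 27.6), and AP1 in 3.6% (2.29 to 5.62) against 9.97% (9.41 to 10.6). In regions at a coding TSS the RUNX shares were both 11.1%, and the AP1 shares 2.42% (1.32 to 4.40) and 3.95% (3.47 to 4.49). The CTCF motif was found in 3 of the 500 regions, or 0.6% (0.204 to 1.75), against 1.33%.

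**Figure D3:**
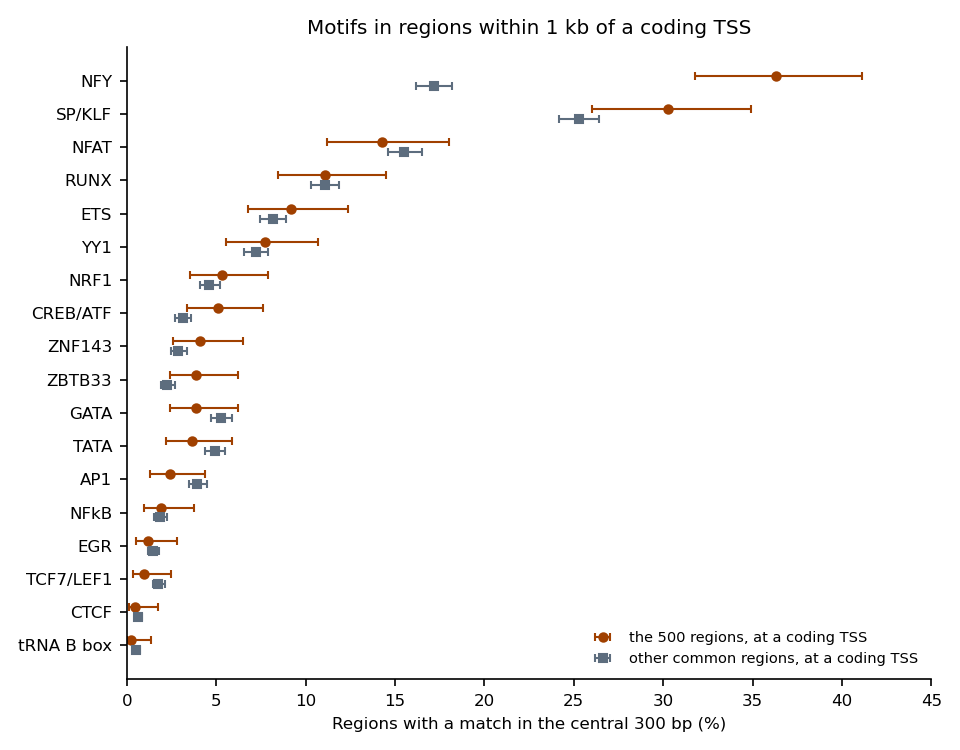
Share of regions within 1 kb of a coding TSS that held each motif in the central 300 bp (x axis, %), for 413 of the 500 strongest regions and for 5594 other common regions, with 95% Wilson intervals. NF-Y stands apart at 36.3% against 17.2%, and the intervals of the other motifs drawn overlap.

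NF-Y matches lay upstream of the TSS in both groups. The 226 matches in the 150 regions had a median position of −102 bp from the nearest coding TSS, with quartiles at −188 and −45.8 bp. The 1252 matches in the 960 other common regions had a median of −78 bp, with quartiles at −138 and −42.2 bp. Of the matches, 46.9% (40.5 to 53.4) fell between 150 and 30 bp upstream in the strongest regions and 57.0% (54.3 to 59.7) in the others. The searched windows themselves were centred further upstream in the strongest regions, as given above. The CCAAT orientation was that of the gene in 55.8% (49.2 to 62.1) and 55.4% (52.6 to 58.1) of the matches. Neighbouring matches in the same window were a median of 73.5 bp apart in the strongest regions (76 pairs) and 44 bp apart in the others (292 pairs).

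**Figure D4:**
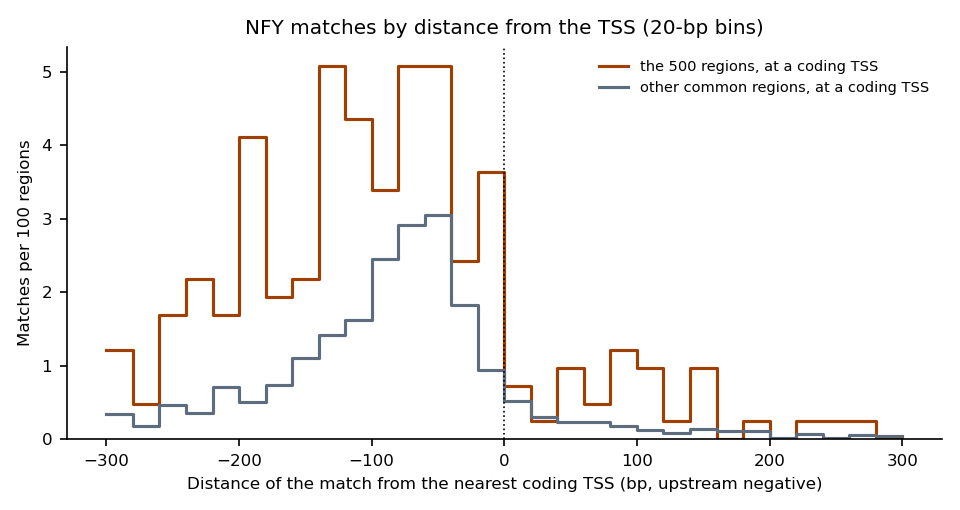
NF-Y matches per 100 regions (y axis) in 20-bp bins of distance from the nearest coding TSS (x axis, bp, upstream negative), for 413 of the strongest regions and 5594 other common regions. Most matches lie upstream, with medians of −102 and −78 bp, and the curve of the strongest regions extends further upstream.

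Some genes of general cell function lay at the strongest regions. Of 20136 coding genes in the annotation, 7089 had a common region within 1 kb of a TSS and 522 had one of the 500, which is 7.36% of those with a common region. Against this, the shares were 10.2% of oxidative phosphorylation genes (6 of 59), 15.2% of proteasome subunit genes (5 of 33), 6.94% of cytosolic ribosomal protein genes (5 of 72), 5.77% of mitochondrial ribosomal protein genes (3 of 52), 6.67% of splicing factor and hnRNP genes (2 of 30) and 3.05% of numbered *ZNF* genes (6 of 197). None of 38 clustered histone genes and none of 21 genes for Pol II subunits and TFIID factors with a common region had one of the 500. Few genes of any list had one of the 500, and these counts were not tested. The largest list, that of the numbered *ZNF* genes, had a share of 3.05%, below the 7.36% over all coding genes.

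*NDUFB4*, of complex I, had 8.37, 8.48, 8.63 and 8.62 (chr3:120314854-120315316), which are the 4 values closest to each other among the first 25 regions. *UQCRB*, of complex III, had 8.12, 7.84, 7.43 and 7.87 (chr8:97247704-97248060). *COX7B* and *COX6B1*, both of complex IV, had 7.80, 7.65, 7.42 and 7.39 (chrX:77154679-77155047) and 8.24, 7.82, 8.02 and 7.29 (chr19:36138940-36139298). The spread over lists was at most 1.13-fold in all 4 genes.

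Proteasome genes were *PSMD2* (lowest list 6.84), *PSMC3* (6.48), *PSMD8* (6.41) and *PSMD4* (6.17), and *PSMA3* had 6.14. The ribosomal protein genes *RPL27*, *RPL13A*, *RPL24* and *RPS12* had lowest-list values of 6.82, 6.4, 6.34 and 6.23, and *RPL3* had 6.14. Mitochondrial ribosomal protein genes were *MRPS30* (7.25), *MRPS27* (6.57) and *MRPL50* (6.18). Both splicing regulators, *HNRNPL* (6.73) and *HNRNPUL1* (6.58), had wide regions of 1599 and 2797 bp. The highest numbered zinc finger genes were *ZNF584* (7.41), *ZNF3* (6.89), *ZNF7* (6.69) and *ZNF281* (6.63).

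Some T cell genes had common regions at their promoters, mostly ranked below the 500, as was the case for all coding genes with a common region. Of 12 T cell markers, 7 to 9 had a peak within 1 kb of a TSS in each list and 6 had a common region, while *CD2* and *CD7* had no peak there in any list. Of 53 markers of B cells, myeloid, erythroid and NK cells, hepatocytes, neurons, fibroblasts and epithelia, 8 to 12 had a peak in a list, 5 had a common region and none had one of the 500. Within 10 kb, 1 of them did, the neuron marker *SYP*, with a region that had 7.36, 7.72, 9.18 and 7.94 (rank 73), named here after its values were seen. Among 26 genes of the T cell receptor and its signalling, 14 had a common region at a TSS, or 53.8%. Of all coding genes, 35.2% had a common region within 1 kb of a TSS, and 7.36% of these had one of the 500. Nothing is read from the absence of a member within 1 kb at the 5 markers of other cell types. The marker counts per list have no share of all coding genes beside them, so nothing is read from those counts either.

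Of 26 transcription factors of the T lineage or T cell leukaemia, 13 had a common region at a TSS, or 50%. Of these 13, 1 had one of the 500, or 7.69%, close to the 7.36% over all coding genes. *TCF3*, which encodes the E proteins E12 and E47, had 7.37, 7.31, 7.20 and 6.35 (rank 338, chr19:1652569-1653246). The median lowest-list value at a TSS was 3.6 for the receptor and signalling genes and 3.59 for the transcription factors, where all coding genes with a common region had 4.20. At a TSS, *GRAP2* (rank 1042), *LCK* (1157), *CD3D* (5976), *CD3E* (7423), *GATA3* (8425) and *RUNX1* (7387) had common regions ranked below the 500. These genes were chosen after their values were seen and are examples only. Within 10 kb of *CD3E*, another common region had rank 1007. Of 25 activation-induced genes, 11 had a common region within 1 kb, or 44%, and none had one of the 500. With 11 genes and a share of 7.36% over all coding genes, nothing is read from this absence. Within 10 kb, *CD69*, an early activation antigen, had a member 3.70 kb away with 8.65, 6.43, 8.16 and 7.74 (rank 297, chr12:9917199-9918406).

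The 59 distal members were lower in GC content than the promoters. Their median GC content was 45.7%, against 44.7% in the other common distal regions. Of the 59, 9 or 15.3% (8.24 to 26.5) were CpG-island-like, against 7.57% (6.74 to 8.5) of the other common distal regions, and these intervals overlapped. Of the 59, 9 lay within 1 kb of the TSS of a non-coding gene. By mid-point 28 were intronic, 18 intergenic and 6 in the 1 kb before a TSS. RUNX motifs were found in 31 of 59, or 52.5% (40.0 to 64.7), against 47.8% (46.1 to 49.5) of the 3460 other common distal regions, and GATA motifs in 28.8% (18.8 to 41.4) against 24.1%. AP1 motifs were found in 8.47% (3.67 to 18.4) against 18.0% (16.7 to 19.3), and NF-Y in 10.2% (4.74 to 20.5) against 5.03% (4.35 to 5.81). For none of the 21 families were the intervals apart.

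The highest distal region lay 7.88 kb from the non-coding gene *LINC00899* and 58.4 kb from *WNT7B*, and had 8.51, 7.75, 8.42 and 8.51 (chr22:46431473-46432062). It was the only CpG-island-like one of the 10 highest. The next, 20.3 kb from the TSS of the non-coding gene *LINC01222* and 402 kb from *PTPRC*, which encodes CD45, had 7.69, 8.68, 8.23 and 9.24 (chr1:199010491-199011609). The central 300 bp, of which a stretch with 2 GATA matches is given above, had a GC content of 34.3% and no RUNX match. The region 289 kb from *NFE2L3* had 8.41, 7.80, 7.51 and 8.63 (chr7:25901140-25902539).

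The others of the 10 lay 77.2 kb from *AREGB*, 41.7 kb from *FSD1L*, 27.0 kb from *ASXL1*, 10.3 kb from *ATP5IF1*, 65.5 kb from *DNAJC5B*, 154 kb from *HS6ST1* and 15.1 kb from *CD2*, with lowest-list values from 7.03 to 7.29. The region named for *ATP5IF1* held the TSS of a non-coding gene. *CD2* encodes a T cell adhesion receptor, and its distal region had 7.86, 7.03, 7.82 and 7.63 (rank 111, chr1:117312213-117312703). *CD2* thus had no peak at its TSS in any list but 1 of the 500 strongest regions 15.1 kb away. Further distal members, named after their values were seen, lay 18.3 kb from the microRNA gene *MIR181B2* (lowest list 7.01) and 27.2 kb from *TCF7*, a T cell transcription factor (6.31). They are examples only, and other distal members lay nearest to coding genes such as *MIF*, *ADRB1* and *HAS2*. Proximity does not show which gene a region acts on.

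**Figure D5:**
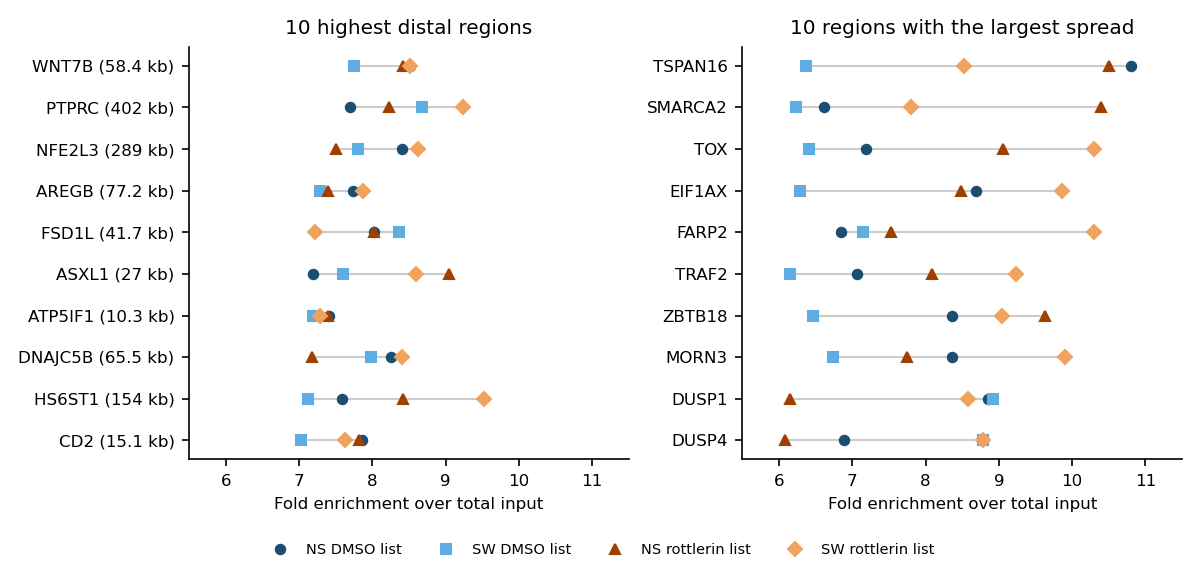
Fold enrichment over total input (x axes, starting at 5.5) in each of the 4 lists for the 10 highest regions over 10 kb from any coding TSS, with the distance to the nearest coding gene (left), and for the 10 members with the largest ratio of highest to lowest list (right). The left-hand values run from 7.03 for the *CD2* region upwards, and on the right the ratio runs from 1.45 to 1.69.

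The 4 lists gave similar values for most of the 500 regions. The ratio of the highest to the lowest list had a median of 1.17 and a maximum of 1.69, and it was at least 1.5 in 5 regions, or 1.00%, against 14.4% of all 10841 common regions. A high lowest-list value was the condition for membership, so nothing is read from this difference. Against the NS DMSO list, the SW DMSO list was at least 1.5-fold higher in none of the 500 (background 1.69%) and lower in 1 (1.84%). The NS rottlerin list was higher in 1 (3.16%) and lower in none (1.24%), and the SW rottlerin list was higher in 1 (5.06%) and lower in none (1.28%). The median ratio to the NS DMSO list over the 500 regions was 0.981, 1.01 and 1.06 for these 3 lists.

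The 10 members with the largest ratios included 5 at a coding TSS and 4 distal regions, and 7 of the 10 were lowest in the SW DMSO list. Over all 500 regions, 82.6% were at a coding TSS, 11.8% were distal, and 194 were lowest in the SW DMSO list. The region 15.8 kb from *TSPAN16* had 10.8, 6.37, 10.5 and 8.53 (chr19:11390605-11390965) and was lowest in the SW DMSO list. *SMARCA2*, a catalytic subunit of SWI/SNF chromatin remodelling complexes, had 6.61, 6.23, 10.4 and 7.80 (chr9:2015033-2015687), high in the NS rottlerin list. The region 412 kb from *TOX* had 7.18, 6.41, 9.05 and 10.3 and was also lowest in the SW DMSO list.

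*EIF1AX*, a translation initiation factor, had 8.69, 6.29, 8.49 and 9.86 (chrX:20159880-20160259). *FARP2* had 6.85, 7.14, 7.53 and 10.3 (chr2:242295302-242295795), and 12.8% of its sampled 32-mers occur elsewhere in the genome. *TRAF2*, an adaptor of tumour necrosis factor receptors, had 7.07, 6.15, 8.09 and 9.23, and *ZBTB18* had 8.36, 6.46, 9.63 and 9.04. The region 19.4 kb from *MORN3* had 8.36, 6.74, 7.75 and 9.90.

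*DUSP1* and *DUSP4* encode phosphatases that inactivate MAP kinases and are induced by them. The region 5.56 kb from *DUSP1* had 8.85, 8.92, 6.15 and 8.58 (chr5:172192254-172192635), and that 205 kb from *DUSP4* had 6.89, 8.79, 6.08 and 8.79 (chr8:29412779-29414270). Both were lowest in the NS rottlerin list. With 1 library per list, none of these differences can be set against a replicate spread.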

How the data were processed

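FAIRE-seq libraries of Jurkat cells were made from 8 cell groups with 1 library each and a total input, 9 samples in all. The 4 samples with a peak list were used, while 5 samples were not used here. The authors removed adapters with cutadapt, used Bowtie2 for alignment to Hg19 and Picard for removal of duplicates, and called broad peaks against the total input with MACS2. Versions are not given in the sources used here. Each deposited list gives a score, a fold enrichment over input as a ratio, and the −log10 of p-values and q-values. The highest q-value in a list was 0.0946 to 0.0983, which is above the cut-off stated in the study's methods. The score follows from the q-value and was not used.

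Peaks of the 4 lists that overlapped by at least 1 bp or touched were merged, giving 40731 regions, of which 28 lay off the autosomes, X and Y and were left out. Regions were ranked by the lowest of the 4 list values of the highest fold enrichment in the region, ties by position. GENCODE release 44 on GRCh37 supplied TSSs and mid-point classes (untranslated, exonic, intronic, promoter, upstream or intergenic, the first that applied). GC content, CpG ratio and consensus motifs of 21 families were read from the central 300 bp, on both strands. Repeats were measured as the share of 32-mers, sampled every 10 bp, found at more than 1 position.

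The genes named are the first 25 regions, the 10 highest distal ones, the 10 with the largest ratio between lists, and genes of the fixed lists with a member at the TSS (up to 4 for lists other than those of T cell genes and transcription factors, with others said to be additional). The members, gene lists and motifs were chosen with earlier results of these data known. For the T cell receptor and signalling genes, the members at a TSS are not reported here. With 1 library per label no test was made. Alternatives were other rankings, 250 or 1000 regions, fewer lists, and other distances and windows. On simulated peaks and sequences, all 3000 made regions, the 100 strongest and all 1050 planted motifs were recovered. Software was samtools 1.23.1 and, under Python 3.11.15, pandas 2.3.3, pysam 0.24.0, matplotlib 3.10.9, scipy 1.17.1 and numpy 2.4.6.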

Additional observations from a re-analysis of the deposited data

How the results depend on the processing

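The 500 regions depended most on the measure used to rank them. Ranking by the lowest −log10 q-value kept 310 of the 500 and gave 93.6% at a coding TSS, 3.8% over 10 kb from one, 89.6% CpG-island-like, 38.8% with an NF-Y match and 0 regions with a ratio of at least 1.5 between lists. Ranking by the mean over lists kept 413 and gave 78.2% at a coding TSS, 15.6% distal and 28 regions with such a ratio. Keeping 250 regions (250 of the 500 by construction) gave 88.0%, 9.20%, 82.8% CpG-island-like, 40.4% with NF-Y and 1 region with such a ratio, and keeping 1000 gave 78.2%, 15.2%, 74.0% CpG-island-like and 13 regions. With the whole region in place of its centre 83.0% were CpG-island-like, and in the central 500 bp 36.8% held an NF-Y match. The cause of the changes with the ranking measure was not tested. The NF-Y and RUNX shares under other rankings were added after seeing the data.

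Leaving out 1 list at a time kept 412 to 467 of the 500 and gave 78.0% to 81.8% at a coding TSS, 12.2% to 15.6% distal, 74.0% to 77.4% CpG-island-like, a median GC content of 61.0% to 61.3%, 31.8% to 32.6% with NF-Y, and 2 to 4 regions with a ratio of at least 1.5. That count of 5 fell to 2 without the SW DMSO or the SW rottlerin list and to 3 without the NS DMSO list. For the same region the ratio cannot rise when a list is left out, so nothing is read from this fall. Ranking by the lowest percentile kept 447, autosomes alone 477 and regions without repeated 32-mers 493, and touching peaks kept apart left the same 500. At 10 kb in place of 1 kb, 9 cytosolic ribosomal protein genes had a member in place of 5.

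No paired analysis was possible because each label has 1 library. Soft-masked repeats could not be used, as the reference sequence here is not soft-masked, and the share of soft-masked bases is not given. Depth is unknown, so differences between lists in fold enrichment cannot be separated from differences in depth.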

Other observations

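The regions off the autosomes, X and Y were not among those ranked. Of these, 13 held a peak in all 4 lists, and none had a lowest-list fold enrichment as high as the 6.07 of the lowest of the 500 regions. The highest, on the contig gl000219, had 4.43.

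Of the 500 regions, 28 lay between 1 and 10 kb from a coding TSS, or 5.60% (3.90 to 7.97, 95% Wilson interval), against 12.4% (11.8 to 13.1) of the other common regions. Of the 500, 49 held no match to any of the 21 motif families in the central 300 bp, and 46 held both an NF-Y and an SP/KLF match. Neither count was compared with the other common regions, so nothing is read from them.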
